A study of Caenorhabditis elegans with 4 samples.

Results

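The HTZ-1 sites in the centre of chromosome V are the peaks of the series' combined list whose midpoint lies above 7 Mb and at or below 14 Mb on that chromosome. The rule uses position alone, and it selected 405 of the 7546 peaks in the list, or 5.37%. They are 36.8% of the 1100 combined-list peaks on chromosome V, and they lie in 33.5% of the span between the chromosome's start and its furthest peak end at 20882693. The limits of 7 and 14 Mb stand at 33.5% and 67.04% of that span, so the selected stretch is close to the middle 1/3 of the chromosome. Positions are 1-based on WormBase WS220, as the deposited lists give them.

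HTZ-1 is the H2A.Z protein of C. elegans, a variant of histone H2A that a remodelling complex of the SWR1 family exchanges into nucleosomes. In many organisms it marks nucleosomes beside the start sites of genes, and in C. elegans embryos it is known from the promoters of many genes. The centres of C. elegans autosomes recombine less than the arms and hold more of the conserved and broadly expressed genes, and chromosome V is known for its many chemoreceptor genes.

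The study profiled HTZ-1 with ChIP-seq (sequencing of DNA recovered by chromatin immunoprecipitation) in embryos of the wild-type strain N2. The embryos were of mixed stages and from a population of males and hermaphrodites grown at 20 °C. All samples carry this genotype and were fixed in 2% formaldehyde for 30 min, and the antibody was an affinity-purified rabbit polyclonal against the N-terminus of HTZ-1. The series has 2 ChIP samples and 2 input samples, and the inputs were not analysed here. Whole embryos are a mixture of cell types, so a site used in few cells and a site with low occupancy in many cells cannot be told apart.

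Replicate 1 had 3848 peaks and replicate 2 had 3650, and the combined list had 7546 narrower ones. The read depth behind the lists is unknown. The sources used here do not state the scale of the peak score, so scores are read as ranks within a list. The score percentile of a peak is its mid-rank in its list, that is the share that scored lower plus 0.5 of those tied with it, and a peak in the upper 50% scored above the median of its list. Nothing in the labels ties the replicates to separate cultures, so their spread, and p-values from it, may be technical. The gene table given is on the assembly WBcel235, so genes at the sites were not analysed here.

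HTZ-1 peaks were denser in the centre of V than on its arms in every list, and sparser than in the central segments of chromosomes I to IV, which were set as the middle 1/3 of each span. Replicate 1 had 229 peaks in the centre and replicate 2 also had 229, which is 32.7 peaks per Mb in each. The arms of V had 23.99 peaks per Mb in replicate 1 and 22.2 in replicate 2, so the centre was 1.36 and 1.47 times as dense. In the combined list the centre had 57.9 peaks per Mb and the arms 50.1, a ratio of 1.16. The left arm had 52.4 combined-list peaks per Mb and the right arm 47.7, and the centre was above each of them. The mean log2 ratio of centre to arms over the replicates was 0.50 ± 0.08 (SD, n = 2). The exact two-sided sign-flip permutation p was 0.5, the smallest that 2 replicates allow, and its adjusted value was 0.545 over 12 comparisons of the centre.

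The central segments of chromosomes I to IV together had 53.6 peaks per Mb in replicate 1, 51.8 in replicate 2 and 93.6 in the combined list. The centre of V had 0.611, 0.631 and 0.618 times as many. Among those chromosomes the combined-list density ran from 73.7 peaks per Mb in the central segment of II to 116 in that of I, so each was above the 57.9 of V. The central segment of X was lower than the centre of V, with 36.96 combined-list peaks per Mb and 23.5 and 19.2 in the replicates. The mean log2 ratio of V to the central segments of I to IV was -0.69 ± 0.03 (SD, n = 2), again with an exact sign-flip permutation p of 0.5 and an adjusted p of 0.545.

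Measured as covered length, the centre of V stood further above the arms than the count of combined-list peaks showed. Combined-list peaks covered 54.1 kb per Mb of the centre and 39.9 kb per Mb of the arms, a ratio of 1.36. Replicate 1 covered 86.9 and 60.6 kb per Mb, a ratio of 1.44, and replicate 2 covered 80.8 and 54.5 kb per Mb, a ratio of 1.48. Combined-list peaks thus took up 5.41% of the centre of V, against 9.28% of the central segments of I to IV.

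Within the centre the counts differed from bin to bin, and whether by more than counting error was not tested. The 7 bins of 1 Mb held 52, 53, 53, 69, 58, 54 and 66 combined-list peaks, in order from the lower limit. Replicate 1 had 22, 26, 35, 38, 35, 33 and 40 peaks in the same bins, and replicate 2 had 25, 27, 35, 42, 30, 33 and 37. Both replicates had their lowest counts in the bins from 7 to 9 Mb, close to the mean density of the arms. The mean over bins was 32.7 ± 6.47 peaks in replicate 1 and 32.7 ± 5.91 in replicate 2 (SD, n = 7 bins of one chromosome). The variance over bins was 0.83 times the mean in the combined list, 1.28 times in replicate 1 and 1.07 times in replicate 2. Independent counts of equal mean would give about 1. In 100 kb windows these values were 1.51, 0.89 and 0.79. Over these 7 bins, which share the chromosome, the Spearman rho between the replicates' counts was 0.90, given as a description.

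**Figure D1:**
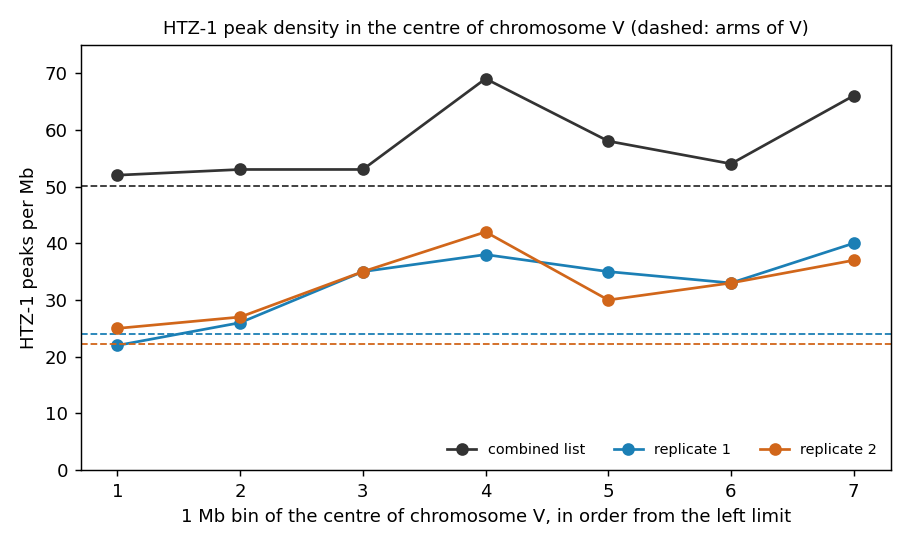
Peaks per Mb in the 7 bins of 1 Mb of the centre of V, from the lower to the upper limit, for the combined list and each replicate. Dashed lines give the mean density of the arms of V in the same list, 50.1, 23.99 and 22.2 peaks per Mb. The first 2 bins are the lowest in both replicates.

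The first 2 Mb also differed in the make-up of their combined-list peaks, a division chosen after the bins were seen and given with no test. From 7 to 9 Mb there were 105 peaks with a median width of 555 bp, and both replicates were met by 50 (47.6%). From 9 to 14 Mb there were 300 peaks with a median width of 1009 bp, and both were met by 194 (64.7%). The share in the upper 50% of the combined list by score was 45.7% in the first stretch and 60.7% in the second. In the replicate lists these shares lay closer together, at 56.2% and 58.01% in replicate 1 and 51.9% and 53.1% in replicate 2. The median score percentile went the other way in both replicate lists, with 67.02 in the first stretch and 55.99 in the second in replicate 1, and 57.6 and 52.3 in replicate 2. In the combined list it was 43.9 and 60.3. Of the 105 combined-list peaks in the first stretch, 13 lay in a single wide replicate 2 peak with no partner in replicate 1. In 100 kb windows the combined-list count ran from 1 to 19 with a median of 6, and no window was empty. In 3 of the 70 windows replicate 1 had no peak midpoint, and in 4 of them replicate 2 had none.

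By score, the sites in the centre of V ranked above the middle of the list. Of the 405 peaks, 230 (56.8%, exact 95% interval 51.8% to 61.7%) lay in the upper 50% of the combined list, against 50% of all peaks. On the arms of V the share was 46.04% (42.3% to 49.8%), and in the central segments of I to IV it was 57.2% (54.96% to 59.4%). In replicate 1 the centre had 57.6% of its peaks in the upper 50% and the arms had 44.1%, and in replicate 2 the shares were 52.8% and 48.1%. The difference averaged 9.14 ± 6.16 percentage points (SD, n = 2 replicates), with an exact sign-flip permutation p of 0.5 and an adjusted p of 0.545. Intervals of shares reflect counting error alone, and peaks that lie side by side are not independent.

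The share in the upper 50% was not carried by the very top of the list. The highest 10% of the combined list held 40 of the 405 peaks, or 9.88%, and the next 10% held 60, or 14.8%. The 10% just below the median score held the fewest, 25 peaks or 6.17%. The 100 highest-scoring peaks of the list included 4 from the centre of V, and the highest 1000 included 55. Both counts are near the centre's share of the whole list, 5.37%. Among replicate peaks, 30 of 229 in replicate 1 (13.1%) stood at the tied score of 3100 or above, against 13.4% of that whole list. In replicate 2 there were 4 such peaks of 229 (1.75%), against 4.85% of that whole list and 5.19% of its peaks on the arms of V. In the central segments of I to IV the shares were 14.8% in replicate 1 and 2.44% in replicate 2. A share below that of the whole replicate 2 list was thus not particular to the centre of V.

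The 10 highest-scoring sites found in both replicates were between 1302 and 1973 bp wide, and 8 of them were wider than the upper quartile of the centre's peaks, 1409 bp. Of the 10, 7 lay beyond 10 Mb. The first was at V, 13677776 to 13679667, with a score of 181.8 and rank 25 in the combined list. It stood at 3100 in each replicate list. The second, at 13564338 to 13566094, had rank 52, with a replicate 1 score of 3100 and a replicate 2 score of 2774. The third, at 11826484 to 11828085, had rank 53, with 3100 and 2642. All 3 sites were thus among the 13.4% of replicate 1 peaks at the tied score of 3100 or above.

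The fourth site, at 10578432 to 10579733, had rank 76 although its replicate scores of 2496 and 2206 lay at percentiles 80.2 and 87.7. The fifth, at 7059714 to 7061224, had rank 109 and is also the member nearest to the lower limit. Sites at 13467580 to 13469063 (rank 116), 7579592 to 7581564 (rank 118) and 8220423 to 8221822 (rank 160) came next. The list was completed by 11993151 to 11994853 (rank 172) and 10133400 to 10135027 (rank 186). Of these 10 sites, 8 stood at 3100 in replicate 1 and 2 did so in replicate 2, and none was below percentile 80.2 in replicate 1 or 79.2 in replicate 2. The combined list is assumed to use the reads of both replicates, so a high rank in all 3 lists is partly built in.

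The highest-scoring sites of the single 1 Mb bins differed in rank. The highest-scoring peak between 9 and 10 Mb, at 9789324 to 9790954, had rank 468, and the highest between 12 and 13 Mb, at 12869194 to 12870270, had rank 472. The first of these had scores of 3100 and 2289 in the replicates. The second, 1077 bp wide, had 1211 and 751, which are percentiles 58.7 and 55.8. In the other 5 bins the highest peak is one of the 10 sites above.

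**Figure D2:**
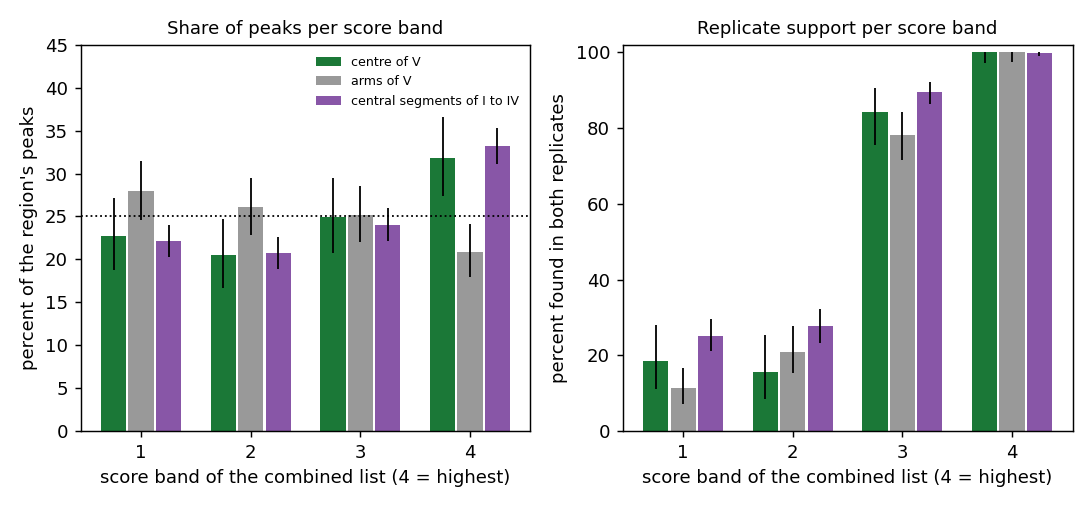
Left, the percent of each region's combined-list peaks in each of 4 bands of 25% of the whole list by score (dotted line at 25%), and right, the percent of those peaks that overlap both replicates. Bars are the centre of V (405 peaks), its arms (695) and the central segments of I to IV (1923), with exact 95% binomial intervals. The highest band holds 31.9% of the centre's peaks and 20.9% of those of the arms.

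With the whole list divided by score into 4 bands of 25%, the centre of V had 31.9% of its peaks in the highest band (27.3% to 36.6%) and 22.7% in the lowest (18.7% to 27.1%). The arms of V had 20.9% and 27.9%, and the central segments of I to IV had 33.2% and 22.1%. All 129 centre peaks of the highest band overlapped both replicates, against 99.9% of that band in the whole list. In the next band 85 of the 101 peaks did (84.2%), against 85.8%. In the 2 lower bands the share was 15.7% and 18.5%, against 26.3% and 18.5% in the whole list. The change in replicate support thus fell near the median score of the combined list, in the whole list as in the centre. The arms showed it at the same place, with 78.3% in the second highest band and 20.99% in the one below. How far the smaller number of peaks in the replicate lists sets this place was not tested.

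The sites in the centre had a median width of 924 bp (95% interval 804 to 1016, quartiles 351 and 1409 bp). The arms of V had a median of 585 bp (519 to 647) and the central segments of I to IV had 970 bp (916 to 1022). Narrow peaks under 500 bp made up 34.6% of the centre's peaks, 44.7% of those on the arms and 39.6% of the whole list. Peaks over 2000 bp made up 3.46%, 3.88% and 5.21%. In the replicate lists the centre and the arms lay closer. The median was 2465 against 2294 bp in replicate 1 and 2331 against 2306 bp in replicate 2. The mean log2 ratio was 0.06 ± 0.06 (SD, n = 2), so the difference was no larger than the spread between replicates.

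Width rose with score rank. Over the 405 peaks the Spearman rho between score and width was 0.875, and over the whole list it was 0.885. These are descriptions across peaks of one list. From the lowest to the highest score band, the median widths of the centre's peaks were 216.5, 455, 1069 and 1489 bp. Those of the peaks on the arms of V were 239.5, 424, 950 and 1475 bp. Within each band the centre and the arms thus lay closer in width than over all their combined-list peaks. Among the 244 peaks found in both replicates rho was 0.669.

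**Figure D3:**
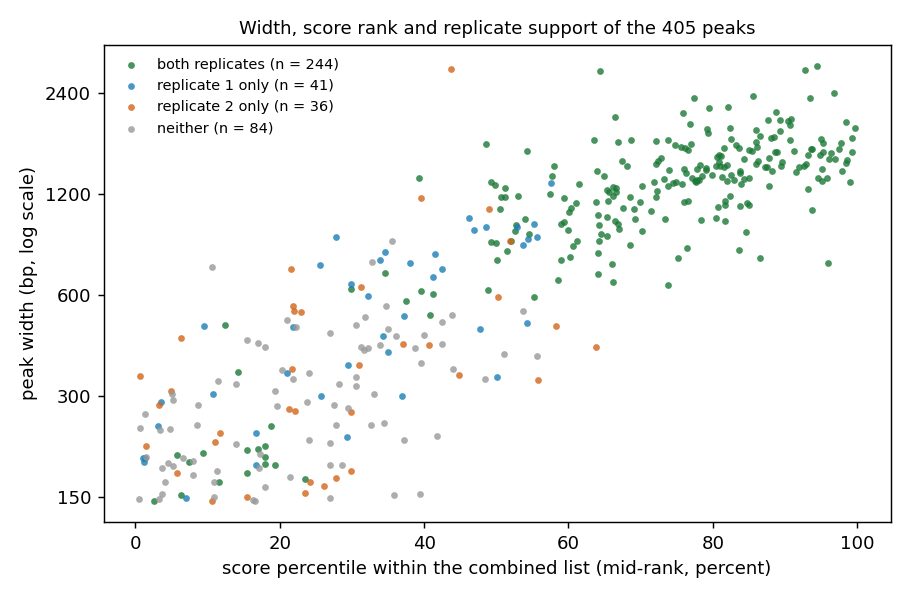
Width in bp (log scale) against score percentile in the combined list for the 405 peaks, coloured by the replicate lists they overlap. Peaks found in both replicates (n = 244) fill the upper right, and those found in neither (n = 84) have a median width of 284.5 bp.

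The widest peaks did not all rank high. The widest, at 13624995 to 13627876 (2882 bp), had rank 418 and scores of 3100 and 2480 in the replicates. The third, at 8460231 to 8463045 (2815 bp), had rank 539 and stood at 3100 in both. The fifth, at 8517993 to 8520393 (2401 bp), had rank 246. The fourth, at 10246266 to 10249053 (2788 bp), had rank 2684, with a score of 1716 in replicate 1 and 542 in replicate 2. The second widest, at 10607016 to 10609852 (2837 bp), had rank 4250 and overlapped replicate 2 only. It was the one exception among the 14 peaks over 2000 bp, of which 13 overlapped both replicates.

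Most of the sites were found in both replicates. Both replicate lists were overlapped, by at least 1 bp, by 244 of the 405 peaks (60.2%, exact 95% interval 55.3% to 65.05%), against 57.6% of all combined-list peaks. The share was 49.2% (45.4% to 52.99%) on the arms of V and 65.8% (63.7% to 67.95%) in the central segments of I to IV. A further 41 peaks (10.1%) overlapped replicate 1 only, against 13.9% of the whole list, and 36 (8.89%) overlapped replicate 2 only, against 5.23%. The remaining 84 (20.7%, 16.9% to 25.02%) overlapped neither, against 23.3% of the whole list and 29.8% of the peaks on the arms.

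The classes differed in rank and width. Peaks found in both replicates had a median width of 1318.5 bp and a median percentile of 76.2, and 242 of the 244 lay wholly inside the peaks of both replicates. Peaks found in replicate 1 only had a median width of 494 bp and a median percentile of 34.3, and those found in replicate 2 only 344 bp and 23.8. Peaks found in neither had a median width of 284.5 bp and a median percentile of 23.9. Of the 84, 3 (3.57%) lay in the upper 50% by score, against 2.50% of such peaks in the whole list. These 3 were at 10049284 to 10049677 (rank 3348), 7978456 to 7978992 (rank 3499) and 13047483 to 13047881 (rank 3690). The first of them lay 45 bp from the preceding peak. In the whole list, too, peaks found in both replicates were the widest and highest-ranked class, with medians of 1235 bp and percentile 71.1. The whole-list medians were 444 bp and 33.9 for replicate 1 only, and 411 bp and 32.3 for replicate 2 only. For peaks found in neither they were 268 bp and 20.98.

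Weak and narrow peaks inside peaks of both replicates were also present. Of the 140 peaks under 500 bp, 76 overlapped neither replicate, 47 overlapped one of them and 17 overlapped both. Each of those 17 had a neighbour less than 1 kb away, and none scored above 5.87. One of them, at 13679943 to 13680088, was 146 bp wide with rank 7331 and lay 275 bp from the highest-scoring site of the centre, inside the same replicate peaks. Another, the one that scored 5.87, lay in replicate peaks at percentiles 17.4 and 16.8, so the replicate peaks were not all strong. An overlap with both replicates therefore does not by itself mark a strong peak.

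Neighbouring peaks were a median of 6802.5 bp apart, measured from the end of one to the start of the next (95% interval 5279 to 9104, 404 distances). The arms of V had a median of 6192 bp (5138 to 8029) and the central segments of I to IV had 4084 bp (3734 to 4392). The upper quartile was 24980 bp in the centre and 24192 bp on the arms, against 12163 bp in the central segments of I to IV. In the replicate lists the centre's median distances were 20422 and 21606 bp, and those of the central segments of I to IV were 8864.5 and 9697 bp. The mean log2 ratio of the replicates was 1.18 ± 0.03 (SD, n = 2, exact sign-flip permutation p = 0.5, adjusted p = 0.545). Against the arms of V it was 0.11 ± 0.03 (SD, n = 2), with the same p values.

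**Figure D4:**
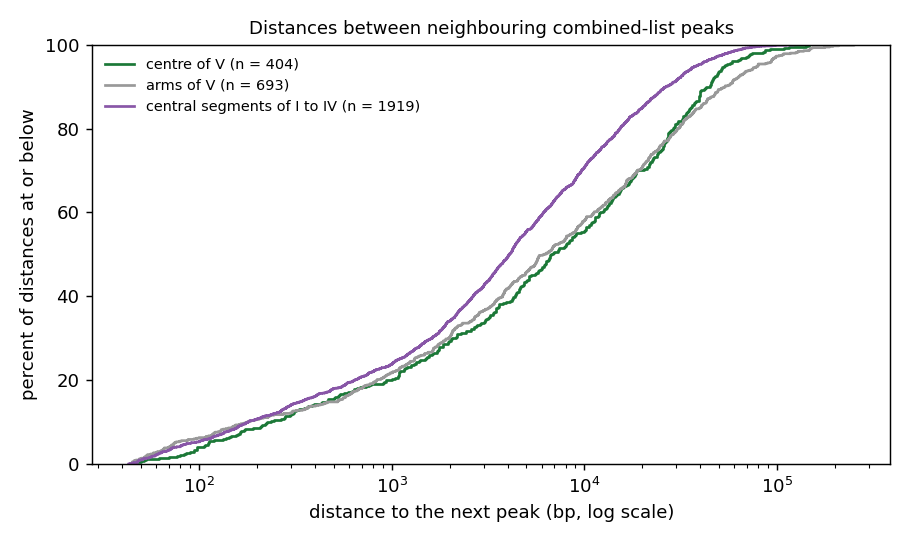
Cumulative percent of distances between neighbouring combined-list peaks, in bp on a log scale, for the centre of V (404 distances), its arms (693) and the central segments of I to IV (1919). The curve of the centre runs close to that of the arms up to about 50 kb, where 93.8% of its distances and 89.3% of those of the arms have been reached.

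Close neighbours were present too, at a lower share than over the whole list. Of the 404 distances, 81 (20.05%, 16.3% to 24.3%) were under 1 kb, against 24.9% over the whole list. The share was 21.8% on the arms of V and 23.8% in the central segments of I to IV. Chained at that distance, the 405 peaks formed 324 groups, of which 267 were single peaks and 46 were pairs. In all, 138 peaks (34.1%) were in groups of 2 or more, a share not computed for the whole list. A peak had a median of 6 other peaks with midpoints within 50 kb, both among peaks found in both replicates and among those found in neither.

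The largest group had 11 peaks, from 7919120 to 7924709, and none of them scored above 7.35. With 2 more just to their left, these peaks lay in 1 replicate 2 peak at 7916312 to 7925616, which was 9305 bp wide and had no partner in replicate 1. The group of 5 peaks from 10605730 to 10612420 also lay in a single wide replicate 2 peak, at 10604996 to 10612992, with no partner in replicate 1. That replicate 2 peak had a score of 1461, percentile 75.6 of its list, while the combined-list peaks inside it scored at most 16.2. Next came 3 groups of 4 peaks each. In the one with the most covered length, from 11919203 to 11922510, 1 peak overlapped both replicates and 3 overlapped replicate 1 only. The group from 7223180 to 7225154 touched peaks of both replicates, while the one from 11822227 to 11824771 touched replicate 1 only.

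A further wide replicate 2 peak, at 9427800 to 9435963, had no partner in replicate 1 and no combined-list peak at all. These 3 were the only replicate 2 peaks over 7 kb in the centre. They held 18 of the 36 centre peaks that overlapped replicate 2 only. Without those 18, a count added after the data were seen, the share found in replicate 2 only was 4.65% and the share found in both was 63.05%. In the whole replicate 2 list 11 of 19 peaks over 7 kb had no partner, and in replicate 1 it was 2 of 56. Replicate 1 had 1 peak over 7 kb in the centre, at 9977771 to 9987035, with a score of 3100. It met 2 replicate 2 peaks with scores of 972 and 149.8 and held 5 combined-list peaks.

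At the other end, 25 stretches of 50 kb or more held no combined-list peak. The longest ran from 7238111 to 7385470 (147360 bp), the next from 8632214 to 8773491 (141278 bp) and the third from 8970926 to 9087109 (116184 bp). None of these 3 held the midpoint of a replicate peak either. Of the 8 longest stretches, a number not set in advance, 6 began below 9 Mb, where the replicate lists were also sparsest. Of all 25 stretches, 8 began there, in the first 2 of the 7 Mb. The share of distances under 50 kb was 93.8% in the centre, near the 94.8% of the whole list. It was 89.3% on the arms of V and 97.3% in the central segments of I to IV. The longest stretch on the arms of V was 252225 bp. There were 2 peaks more than 50 kb from either neighbour. One, at 9855825 to 9857444, overlapped both replicates with rank 1768, and the other, at 13239685 to 13239899, overlapped neither and had rank 6493.

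Inside the centre most peaks of either replicate had a partner in the other. Of the 229 replicate 1 peaks, 207 (90.4%, exact 95% interval 85.8% to 93.9%) overlapped a replicate 2 peak, against 85.9% of that whole list and 83.2% on the arms of V. Of the 229 replicate 2 peaks, 212 (92.6%, 88.4% to 95.6%) overlapped a replicate 1 peak, against 93.6% of that whole list and 91.2% on the arms. In the central segments of I to IV the shares were 89.3% in replicate 1 and 96.1% in replicate 2. The centre of V was thus above those segments in replicate 1 and below them in replicate 2. All 229 replicate 1 peaks and 228 replicate 2 peaks overlapped the combined list. Of these, 44 in replicate 1 (19.2%) and 34 in replicate 2 (14.8%) held 2 or more combined-list peaks, against 27.2% and 23.3% of the whole lists.

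There were 199 pairs in which 1 peak of each replicate met no other peak of the other list. Their midpoints were a median of 69.5 bp apart (quartiles 35.2 and 131 bp), and 176 pairs (88.4%) lay within 250 bp. The median overlap was 91.8% of the length that the 2 peaks covered together. The Spearman rho of their scores was 0.930 and that of their widths was 0.822, as descriptions across peaks. In 144 of the 199 pairs (72.4%) the peak had the higher percentile in replicate 1, against 59.2% of 3154 such pairs over all chromosomes. Over the 172 pairs with both scores below the tied value of 3100, a choice made after the data were seen, the share was 72.1%, against 60.2% of 2681 such pairs over all chromosomes. The replicate 1 peak was the wider one in 140 pairs (70.4%), against 61.1% over all chromosomes. In 9 pairs the percentiles were more than 25 apart, and the largest difference was 34.9 percentage points.

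**Figure D5:**
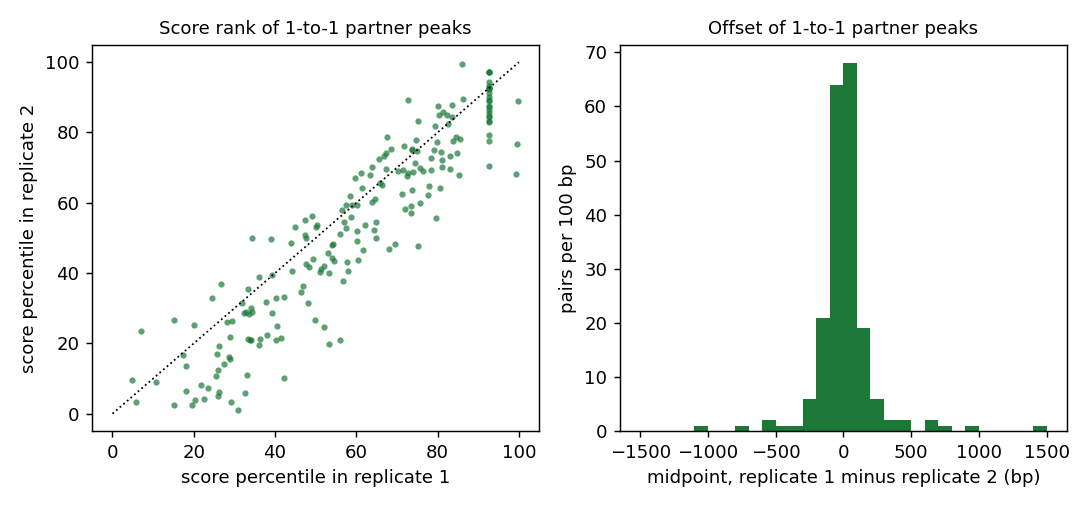
The 199 pairs of partner peaks in the centre of V, with left the score percentile in replicate 2 against that in replicate 1 (dotted line: equal percentiles) and right the offset of the midpoints, replicate 1 minus replicate 2, in bp. In 144 pairs the point lies below the line, and 176 offsets are under 250 bp.

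Replicate peaks without a partner ranked low, with 1 clear exception. In replicate 1 there were 22, with a median percentile of 14.5, and the lowest 25% of the list held 21 of them. The highest were at 12464464 to 12466552 (percentile 35.7), 8425483 to 8427577 (23.4) and 8963439 to 8965523 (23.3). In replicate 2 there were 17, with a median percentile of 10.9, and the lowest 25% held 14. The 3 highest were the wide peaks named above, at percentiles 75.6, 34.4 and 33.1. Partnered peaks had median percentiles of 60.2 in replicate 1 and 54.8 in replicate 2.

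At the limits of the centre the neighbouring peaks were well separated. The member nearest to 7 Mb, at 7059714 to 7061224 with a score of 159.6, was 60869 bp from the nearest peak outside, at 6998271 to 6998844 with a score of 25.03. The member nearest to 14 Mb, at 13961354 to 13963008 with a score of 67.5, was 39092 bp from the nearest peak outside, at 14002101 to 14002545 with a score of 6.2. Both members overlapped both replicates.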

How the data were processed

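Each replicate list and the combined list hold peak positions in bp and a peak score. Per the file headers, the deposited score and positions are on WormBase WS220, and the source columns name MACS for the replicates and MACS v2 for the combined list. The submitters' processing notes name BWA and ce10. Thresholds, the role of the input and the making of the combined list are not given in the sources used here. Samples were grouped by title. Members and lists of regions were chosen with earlier results of these data known.

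Computed here with Python 3.11.15, NumPy 2.4.6, pandas 2.3.3 and SciPy 1.17.1 were overlaps of at least 1 bp, distances between neighbours, and densities over spans that end at the furthest peak. Central segments of chromosomes I to IV and X are the middle 1/3 of those spans. Intervals are 95%, exact binomial for shares and binomial order statistics for medians. Contrasts were tested over the 2 ChIP replicates by exact sign flips, with Benjamini-Hochberg adjustment over 12 comparisons. The functions were tested on simulated data.

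Named peaks are the 10 highest-scoring members found in both replicates, the highest in each bin, the 5 widest, the 3 longest stretches, the 3 largest groups (with ties), the 3 highest found in neither replicate, those at the limits and the 3 highest unpartnered peaks of each replicate. Others, including the wide replicate 1 peak, the pair of isolated peaks and the 146 bp peak, were chosen after their values were seen. No sequence of the build was at hand, so none is shown. Alternatives covered other limits, overlap rules, score thresholds, merging and single replicates.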

Additional observations from a re-analysis of the deposited data

How the results depend on the processing

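Of 58 alternatives for 14 results, 38 left the value within its interval, its spread between replicates or, for counts, 1.5 times. Direction was judged only for the ratios of peak density, and none of those was reversed. Other limits of the centre stayed within those bounds for the number of members, the shares in both and in neither replicate, the width, the distance, the share in the upper 50% and the ratio to the arms, and the middle 1/3 of V did so for the ratio to the central segments of I to IV. They were not run for the other results. With peaks of the upper 50% by score there were 230 members, of which 93.04% overlapped both replicates and 1.30% neither, with a median width of 1335 bp, a median distance of 21590 bp and a ratio to the arms of 1.43. Merging peaks under 1 kb apart gave a median width of 1191.5 bp, a median distance of 12018 bp and a ratio to the central segments of I to IV of 0.648. With covered length the ratios were 1.36 to the arms and 0.584 to those central segments. When 50% of both peaks had to overlap, 32.1% of members met both replicates and 86.9% of replicate 2 peaks met replicate 1. Without the wide unpartnered replicate 2 peaks, an alternative added after the data were seen, 4.65% of members met replicate 2 only.

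Leaving out 1 replicate, the share of members met by the other was 69.1% to 70.4%. Taken from single replicate lists, the median distance was 20422 to 21606 bp, the ratio to the arms 1.36 to 1.47, the ratio to the central segments of I to IV 0.611 to 0.631, and the share in the upper 50% 52.8% to 57.6%. The cause of these shifts was not tested. No paired analysis was possible because the input samples that share the replicate numbers were not analysed here. The depth behind the peaks is unknown, and 2 replicates allow no p below 0.5.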
